A study of Sus scrofa with 6 samples.

Results

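The circular RNAs (circRNAs) of LEF1 and GSK3B, a pair of genes of the Wnt pathway, were described in boar testis. Every row of the deposited circRNA table whose host gene was named LEF1 or GSK3B was taken, which gave 17 of 4350 circRNAs. LEF1 hosted 4 of them, 3 exonic and 1 intronic, and GSK3B hosted 13, all exonic. Of the 17, 10 had at least 10 reads over the 6 libraries (2 of LEF1 and 8 of GSK3B) and entered the differential expression fit, and 7 did not. The study sequenced testis RNA, freed of ribosomal and linear RNA, from 3 Landrace boars aged 30 days (Piglet-D30) and 3 Landrace boars aged 210 days (Adult-D210), to compare circRNAs before and after sexual maturity. One testis of each boar gave 1 library. The boars carried no transgene and received no treatment that the labels name, so the groups differed by age.

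In the canonical Wnt pathway, GSK3B is a kinase of the destruction complex that marks β-catenin for degradation, and it also phosphorylates glycogen synthase. When a Wnt ligand binds its receptors the complex is held back, β-catenin accumulates, and it enters the nucleus to act with LEF1, a DNA-binding protein of the HMG-box type, on target genes. In the testis, Wnt signalling is known to act in Sertoli cells and in spermatogonia. A circRNA arises when a splice donor is joined to an acceptor that lies upstream of it (back-splicing), so that 1 or more exons close into a ring. An intronic circRNA (ciRNA) is a ring made from an excised intron.

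Both genes were selected with the age differences of their circRNAs in these same libraries known. Their levels, fold changes and shares between the ages are therefore given as a description, without a test. This holds also where the libraries of the ages are said not to overlap. With so few libraries per age, such a separation can arise without an age difference. How often other circRNAs or splice positions of the table separate in this way was not counted. Non-overlap alone is therefore not read as a sign of an age difference. A circRNA is named as called where edgeR's quasi-likelihood fit over the whole table gave it an adjusted p below 0.05 together with a log2 fold change beyond 1 in either direction. The SE printed with a log2 fold change is its size divided by the square root of the F statistic of that fit. It therefore restates the F test and is no separate measure of spread. Reads were counted at a single back-splice junction per circRNA, whatever its length, so levels were not scaled for length.

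The 6 libraries held 12701 to 33091 back-splice reads and 37364412 to 49179118 mapped reads. Piglet-D30 replicate 1 holds a read of each of the 2552 exonic circRNAs of the table, so LEF1 or GSK3B circles seen only in other libraries were not analysed here. These exonic circRNAs lie on chromosomes 7, 8, 12 and 13, so for a host gene elsewhere only intronic circRNAs could be examined. Counts of markers or pathway genes found among the hosts are bounded by this and do not show which genes form circles or which cells are present. Of the host genes that mark testis cells, 3 of 20 germ cell genes (ACRV1, MOV10L1 and PIWIL1), 1 of 9 Sertoli cell genes (GATA4) and 2 of 7 Leydig cell genes (CYP17A1 and STAR) had a circRNA in the table. Summed germ cell marker reads ranged from 0.207 to 0.749 per 1000000 mapped reads in the piglets and from 0.041 to 0.488 in the adults, and Leydig cell marker reads from 0.0921 to 0.321 and from 0.244 to 0.346. The germ cell values rest on 78 reads in all. By the paper's histology, spermatogonia were the sole germ cells of the young boars, whereas the mature boars had ongoing spermatogenesis and sperm. These reads are therefore not taken as a measure of germ cell content. GATA4 had 8 reads, all in Piglet-D30. LEF1 is also a transcription factor of T cells, but 0 of 5 T cell markers had a circRNA in the table, which within these limits leaves the T cell content of the samples unmeasured. Macrophage and peritubular markers had 1 read each (CD163 and ACTA2), and 0 of 5 endothelial markers were listed. The part of cell composition in the results was not tested, and in whole testis fewer cells of a type and less RNA per cell cannot be told apart.

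The LEF1 circRNAs lay on the plus strand of chromosome 8, on the transcript ENSSSCT00000010018, in coordinates of the pig assembly Sscrofa 10.2, counted from 1. Exonic LEF1 circles used 3 stretches of annotated sequence. The first, from 122168079 to 122174111, held 3 exons, the second, from 122176417 to 122177726, held 2 exons, and the third was a single exon of 108 nt from 122184060 to 122184167. circRNA10330 (chr8:122176417-122177726) closed the 2 exons of the middle stretch and spanned 1310 nt. circRNA10329 (chr8:122168079-122184167) covered all 3 stretches with 6 exons over 16089 nt. circRNA10328 (chr8:122168079-122177726) covered the first and second stretches with 5 exons over 9648 nt. It shared its start with circRNA10329 and its end with circRNA10330. The intron upstream of the shared start was 77812 nt long.

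The intronic member, ciRNA1298 (chr8:122088754-122090132), lay upstream of the exonic circles and comprised a whole LEF1 intron of 1379 nt, next to an exon of 134 nt. It had 2 reads, both in Adult-D210 replicate 1, which is under the 3 reads taken as the floor of a library.

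The GSK3B circRNAs lay on the plus strand of chromosome 13, on the transcript ENSSSCT00000013006. They were built from 9 exons in 8 stretches. Single exons began at 149510122 (194 nt), 149599667 (84 nt), 149623912 (111 nt), 149627865 (131 nt), 149657446 (96 nt), 149670465 (187 nt) and 149685180 (99 nt), and a stretch of 3726 nt from 149631857 to 149635582 held 2 exons. The introns between them ran from 3842 to 89351 nt. Circles started at 7 positions and ended at 5. Of these, 5 starts were used by more than 1 circRNA (11 circRNAs in all), as were 4 ends (12 circRNAs).

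**Figure D1:**
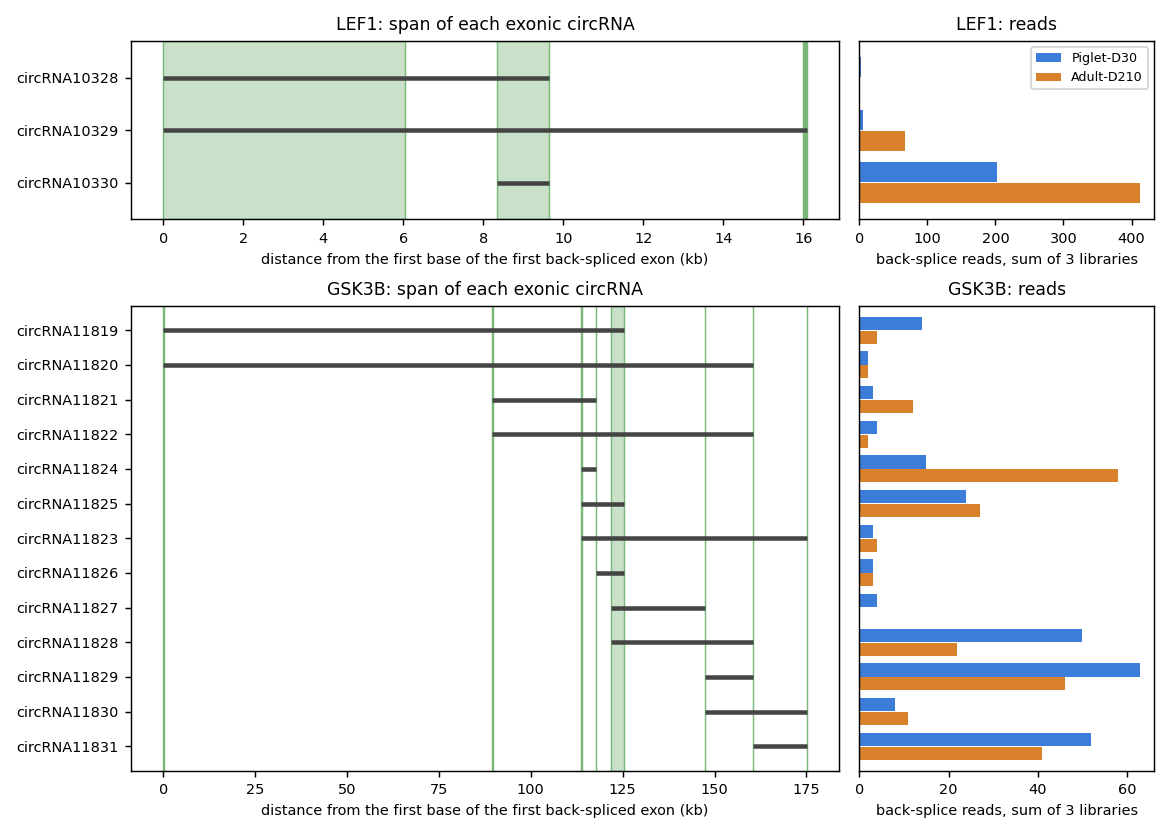
Left panels show the span of each exonic circRNA (dark bars) along LEF1 and GSK3B, in kb from the first back-spliced base; shaded bands are the annotated stretches, which can hold more than 1 exon with the introns between. Right panels show the back-splice reads summed over the 3 libraries of each age: circRNA10330 of LEF1 stands alone with 615 reads in all, whereas the reads of GSK3B are spread over 13 circles, led by circRNA11829 with 109.

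All 13 GSK3B circRNAs and all 3 exonic LEF1 circRNAs shared a start or an end with another circRNA of the same gene, compared with 1908 of the 2552 exonic circRNAs of the table (74.8%). Among circRNAs with at least 10 reads this held for 8 of 8 of GSK3B, 0 of 2 of LEF1 and 863 of 1270 overall (68%). A circle that is the only one of its gene cannot share, and more circles leave more ways to share. Genes with a like number of circles were not compared, so these shares are not read as particular to LEF1 or GSK3B. GSK3B had many circles. Of the 659 host genes of exonic circRNAs, 29 (4.4%) had 13 or more, whereas 308 (46.7%) had the 3 of LEF1 or more, and the median was 2. The longer of the introns on either side of a circle had a median of 77812 nt for LEF1 and 24161 nt for GSK3B, against 8567 nt for all exonic circRNAs. The LEF1 value is a single intron, upstream of the start that circRNA10328 and circRNA10329 share. circRNA10330, the most read LEF1 circle, lay between introns of 2305 and 6333 nt, both shorter than the median of the table. A circle held a median of 5 exons for LEF1, 3 for GSK3B and 4 for all, and the median span was 9648, 27833 and 8725 nt.

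The genes differed in how their reads were divided among the listed circles. Shares here and below are of the reads of listed circles. Exonic circles without a read in Piglet-D30 replicate 1 lie outside them, among these any seen only in adults. The paper reports many more circRNAs and host genes than are listed here, and its supplement names a further LEF1 circle. The shares and ranks therefore do not cover every circle of these genes. One circle carried most of the listed LEF1 reads. circRNA10330 had 615 of the 690 exonic LEF1 reads (89.1%). Over the 308 host genes with at least 3 exonic circRNAs, the leading circle had a median share of 52.9%, and 93.5% of these genes had a lower share than LEF1. Of the 87 genes with exactly 3 circles, 72 had a lower leading share (median 65.9%). In GSK3B the leading circle, circRNA11829, had 109 of 477 reads (22.9%), and 0.974% of the 308 genes had a lower leading share. Genes with 13 or more circles had a median of 35.6%, and 3 of the 29 were below GSK3B. By summed exonic reads LEF1 ranked 40 and GSK3B 60 of the 659 genes.

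Of the 10 fitted circRNAs of the pair, 3 were called and 7 were not. The 3 were circRNA10329 and circRNA10330 of LEF1 and circRNA11824 of GSK3B, each higher in Adult-D210. In the whole table, 111 of 1341 circRNAs were called (8.28%), 46 of them higher (3.43%) and 65 lower (4.85%) in Adult-D210. Because the genes were chosen on this contrast, nothing is read from these counts. The median log2 fold change of all 1341 was −0.42 with TMM scaling of the back-splice totals and −0.90 with mapped reads as the library size. Each value below should be set against that shift, which is not a fixed baseline. Every exonic circRNA of the table has a read in Piglet-D30 replicate 1. Without that library the TMM median was −0.05 over 1046 circRNAs, with 38 called higher and 36 lower. With mapped reads, 77 circRNAs of the table were called, 9 higher and 68 lower, and 0 of the pair. Leaving out 1 library at a time kept 0 to 3 of the 3 calls, with 0 kept without Adult-D210 replicate 1 or Piglet-D30 replicate 3.

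Summed over its 4 circRNAs, LEF1 had 86, 77 and 47 reads in Piglet-D30 replicates 1 to 3 and 269, 141 and 72 in Adult-D210 replicates 1 to 3. Per 1000000 mapped reads these were 2.3, 1.77 and 1.08 against 5.47, 3.49 and 1.48. Adult-D210 replicate 3 fell within the range of the piglets and the other adult libraries lay above it. The means were 1.72 ± 0.611 and 3.48 ± 2 (SD, n = 3 each), a ratio of 2.03 (log2 ratio 1.02, and 0.53 without Adult-D210 replicate 1). Per 1000000 back-splice reads they were 3099 ± 932 and 8977 ± 2968 (SD, n = 3 each), a ratio of 2.9, and on this scale the groups did not overlap. This scale divides by the back-splice total of the table, which is not alike between libraries. Piglet-D30 replicate 1 has a read of every exonic circRNA listed, and of 3008 circRNAs in all, against 1283 to 1673 in the other libraries. The non-overlap should be read with that limit.

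circRNA10330 was the 22nd most read of the 1341 circRNAs fitted, and 98.4% had fewer reads. It had 80, 77 and 45 reads in the piglet libraries and 230, 120 and 63 in the adult libraries. The SRPBM, the deposited level scaled to mapped reads and read length, was 14.3, 11.8 and 6.91 in the piglets and 31.2, 19.8 and 8.61 in the adults. Adult-D210 replicate 3 lay among the piglets on this scale, and the adult libraries were spread more widely than the piglet libraries. The means were 11 ± 3.74 and 19.9 ± 11.3 (SD, n = 3 each), 1.81-fold higher in the adults, and the fitted log2 fold change was 1.28 (SE 0.33). Over mapped reads it was 0.86 (SE 0.50), under the limit of 1 for a call.

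The larger circle, circRNA10329, was close to undetected in the piglets. It had 5, 0 and 0 reads there against 37, 21 and 9 in the adults. In SRPBM this was 0.892, 0 and 0 against 5.02, 3.46 and 1.23, and every adult library was above every piglet library. The means were 0.297 ± 0.515 and 3.24 ± 1.9 (SD, n = 3 each). The log2 fold change was 3.94 (SE 0.89), and 3.49 (SE 1.10) over mapped reads. All its piglet reads came from Piglet-D30 replicate 1, the library in which every exonic circRNA of the table has a read, so the size of the fold change rests on those 5 reads. Without that library the piglets stood at 0 and the fitted value was 7.52, which depends on the prior of the fit and is no bound. circRNA10328 had 1, 0 and 2 reads in the piglets and 0 in each adult library, too few for the fit.

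Within LEF1 the shares of the circles differed between the ages. circRNA10329 made up 5.81%, 0% and 0% of the LEF1 reads in the piglet libraries and 13.8%, 14.9% and 12.5% in the adult libraries. The adult shares lay close together and above all piglet shares (1.94% ± 3.36 and 13.7% ± 1.2, SD, n = 3 each), a difference of 11.8 percentage points. Counting error was wide. The 95% Wilson interval was 2.51% to 12.9% in Piglet-D30 replicate 1, and 10.1% to 18.4%, 9.95% to 21.7% and 6.72% to 22.1% in the adult libraries. For the 0 of 77 and 0 of 47 reads of Piglet-D30 replicates 2 and 3 the upper Wilson limits were 4.75% and 7.56% (3 reads, the floor used here, would be 3.9% and 6.38%). These intervals and limits treat the reads of 1 library as independent draws and leave out the spread between boars. The reads carry no molecular identifiers, so repeated copies of a molecule could not be recognised.

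circRNA10330 held 93%, 100% and 95.7% of the LEF1 reads in the piglets and 85.5%, 85.1% and 87.5% in the adults, and the groups did not overlap. The mean share was 96.3% ± 3.52 in Piglet-D30 and 86% ± 1.28 in Adult-D210 (SD, n = 3 each). Shares of a gene sum to 100%, so this difference of −10.2 points and that of circRNA10329 are not independent. The start at 122168079, used by circRNA10328 and circRNA10329, took 3.74% ± 3.52 of the piglet reads and 13.7% ± 1.2 of the adult reads (SD, n = 3 each). The 2 exons of the middle stretch were spanned by all 3 listed exonic circles. They were thus spanned by 99.3% to 100% of the LEF1 reads of each library in the table, which leaves out circles not listed.

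**Figure D2:**
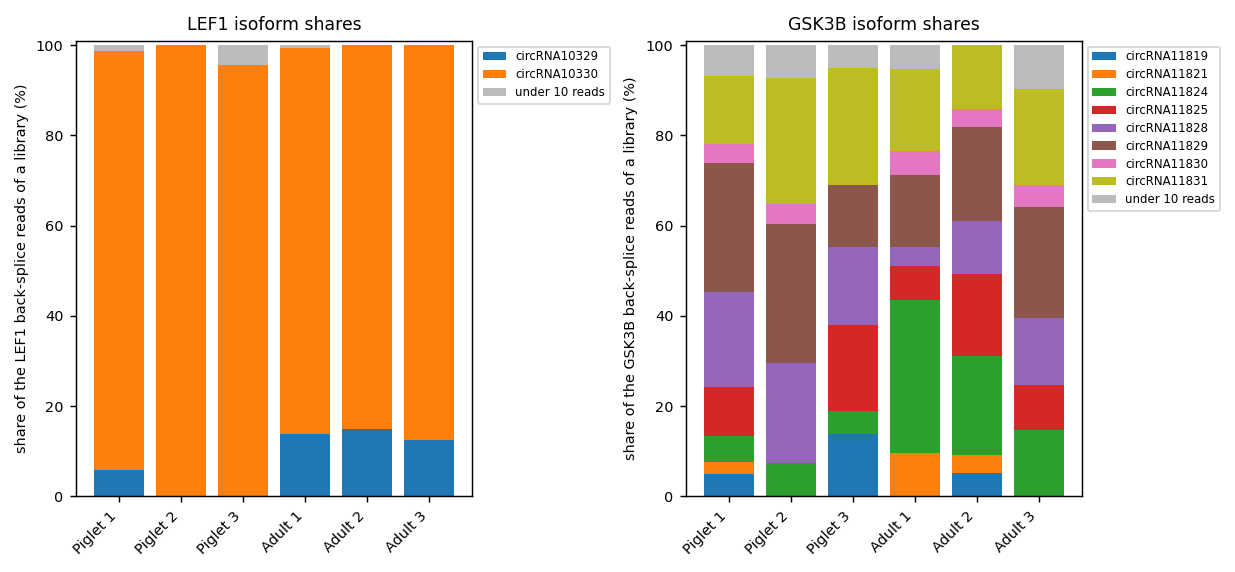
Stacked bars give the share (%) of each circRNA in the LEF1 reads (left) and the GSK3B reads (right) of each library, with circRNAs under 10 reads summed in pale grey. circRNA10329 makes up 12.5% to 14.9% of LEF1 in the adult libraries and at most 5.81% in the piglet libraries, and circRNA11824 is 14.8% to 34% of GSK3B in the adults against 5.17% to 7.35% in the piglets.

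GSK3B as a whole had 119, 68 and 58 reads in the piglet libraries and 94, 77 and 61 in the adult libraries. Per 1000000 mapped reads the values were 3.18, 1.56 and 1.34 against 1.91, 1.9 and 1.25, and the groups overlapped. The direction depended on the scale. The adult mean was lower per 1000000 mapped reads (1.69 ± 0.38 against 2.03 ± 1.01, SD, n = 3 each, log2 ratio −0.26) but higher per 1000000 back-splice reads (4724 ± 702 against 3466 ± 307, SD, n = 3 each, log2 ratio 0.45) and in the edgeR fit over host gene sums (0.54, SE 0.31). Per 1000000 mapped reads it was also higher without Piglet-D30 replicate 1 (0.22). The summed level of GSK3B circles is therefore given with no direction.

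circRNA11824 (chr13:149623912-149627995) differed most among the GSK3B circles with reads in every library. It joined the exons of 111 and 131 nt, 242 nt in all if no intron is kept, and spanned 4084 nt. It had 7, 5 and 3 reads in the piglets and 32, 17 and 9 in the adults. Its SRPBM was 1.25, 0.764 and 0.461 against 4.34, 2.8 and 1.23. The lowest adult library, replicate 3, was just below the highest piglet library, replicate 1, so the groups met at their edges. The means were 0.825 ± 0.398 and 2.79 ± 1.55 (SD, n = 3 each), 3.38-fold higher in the adults, and the log2 fold change was 2.21 (SE 0.60), or 1.76 (SE 0.74) over mapped reads.

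Its share of the GSK3B reads was 5.88%, 7.35% and 5.17% in the piglets and 34%, 22.1% and 14.8% in the adults. The groups did not overlap, and the adult libraries were spread more widely than the piglet libraries (6.14% ± 1.11 and 23.6% ± 9.74, SD, n = 3 each). The Wilson intervals were 2.88% to 11.6%, 3.18% to 16.1% and 1.77% to 14.1% in the piglet libraries. They were 25.3% to 44.1%, 14.3% to 32.5% and 7.96% to 25.7% in the adult libraries, so that the intervals of Adult-D210 replicates 2 and 3 overlapped piglet intervals and that of Adult-D210 replicate 1 did not.

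circRNA11828 (chr13:149631857-149670651, 4 exons) had the opposite share pattern. It had 25, 15 and 10 reads in the piglets and 4, 9 and 9 in the adults, or 4.46, 2.29 and 1.54 SRPBM against 0.542, 1.48 and 1.23. Each adult library was below each piglet library, with the nearest pair at 1.48 and 1.54. The log2 fold change was −0.77 (SE 0.61), close to the −0.42 median of the table, and −1.34 (SE 0.70) over mapped reads, against −0.90. Without Piglet-D30 replicate 1 it was −0.50, against a median of −0.05. It was not called on either scale. Its share was 21%, 22.1% and 17.2% in the piglets and 4.26%, 11.7% and 14.8% in the adults, again without overlap (20.1% ± 2.53 and 10.2% ± 5.4, SD, n = 3 each).

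Circles that began at the exons of 96 and 187 nt lay downstream. circRNA11829 (chr13:149657446-149670651, exons of 96 and 187 nt) had 34, 21 and 8 reads in the piglets and 15, 16 and 15 in the adults. Its SRPBM of 3.5 ± 2.43 and 2.24 ± 0.344 (SD, n = 3 each) overlapped between the ages, and the log2 fold change was −0.05 (SE 0.51). circRNA11831 (chr13:149670465-149685278, exons of 187 and 99 nt) had 18, 19 and 15 reads against 17, 11 and 13. Its SRPBM of 3.21, 2.9 and 2.3 against 2.3, 1.81 and 1.78 placed the lowest piglet library level with the highest adult library, and the log2 fold change was −0.03 (SE 0.49). The shares of both circles overlapped between the groups, at 24.4% ± 9.27 and 20.4% ± 4.33 for circRNA11829. circRNA11830, which joins the exons of both, had 11 reads in the adults and 8 in the piglets, with a log2 fold change of 0.77 (SE 1.02).

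**Figure D3:**
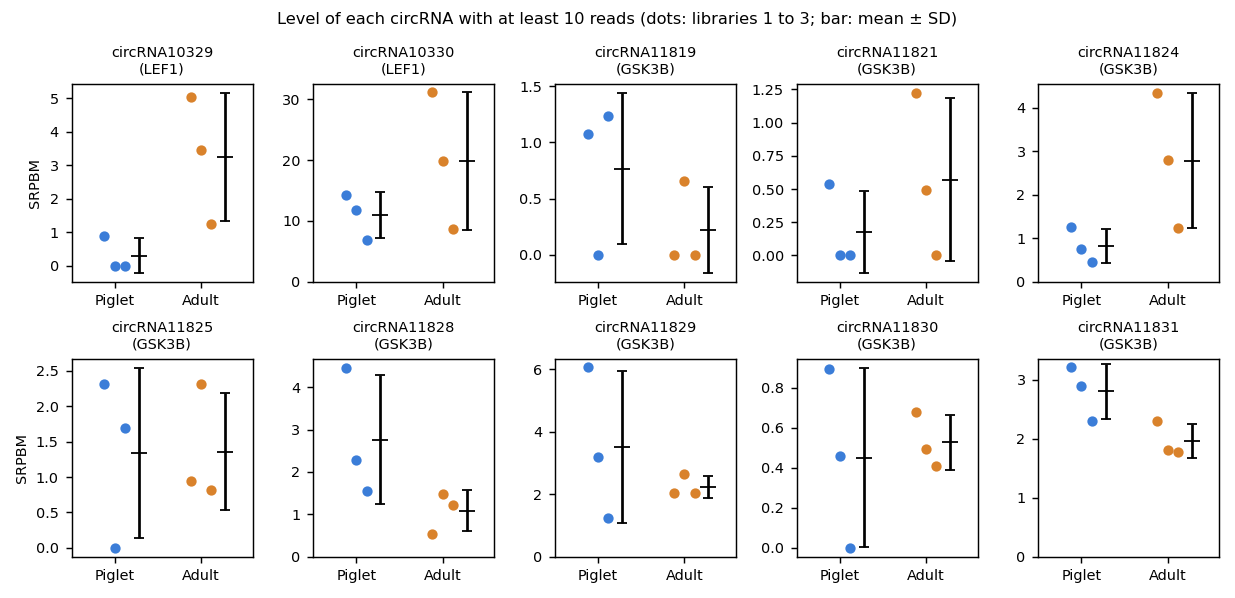
SRPBM of the 10 circRNAs with at least 10 reads, with 1 dot per library in the order of replicates 1 to 3 and a bar for the mean and SD of each age. Piglet and adult dots do not overlap for circRNA10329 (0 to 0.892 against 1.23 to 5.02) and circRNA11828 (1.54 to 4.46 against 0.542 to 1.48), and Adult-D210 replicate 3 is the lowest adult library of circRNA10329, circRNA10330 and circRNA11824.

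The remaining circles of GSK3B began upstream of these. circRNA11825 (chr13:149623912-149635582, 4 exons) had 13, 0 and 11 reads in the piglets and 7, 14 and 6 in the adults (log2 fold change 0.55, SE 0.81). It was absent from Piglet-D30 replicate 2 and present in the other 5 libraries. circRNA11821 (chr13:149599667-149627995, 3 exons), which has the same end as circRNA11824 and 1 exon more, had 3, 0 and 0 reads against 9, 3 and 0 (log2 fold change 2.15, SE 1.37). circRNA11819 (chr13:149510122-149635582, 6 exons) had 6, 0 and 8 reads against 0, 4 and 0 (log2 fold change −1.38, SE 1.43). With these SEs neither direction can be read from the fits. The 5 remaining GSK3B circles, circRNA11820, circRNA11822, circRNA11823, circRNA11826 and circRNA11827, had 4 to 7 reads each over the 6 libraries and were not fitted. The spliced length could be summed from known exons for 5 circles (242, 283, 286, 326 and 382 nt), and none of the 5 was a multiple of 3.

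**Figure D4:**
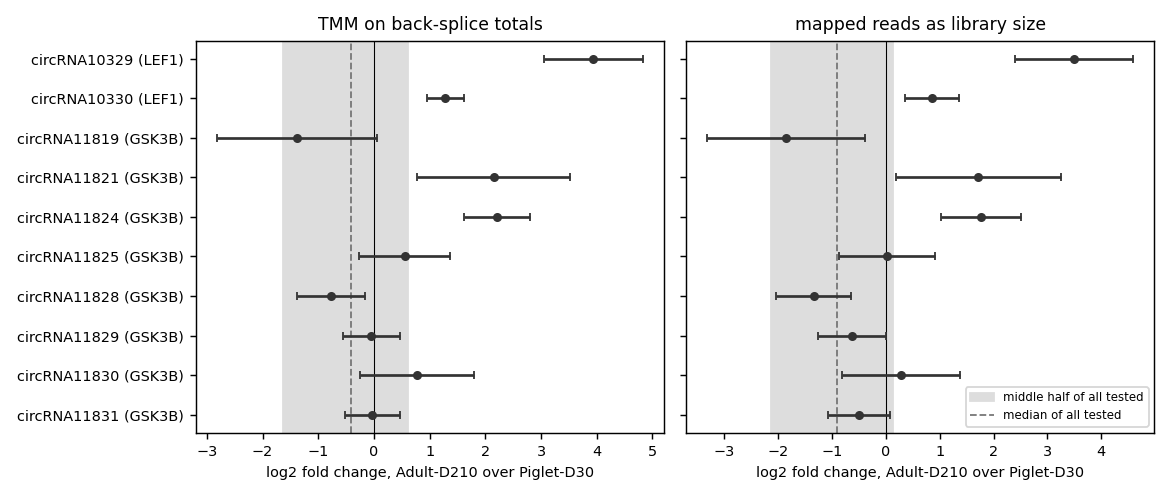
Log2 fold change of Adult-D210 over Piglet-D30 (points) with its SE (bars) for the 10 fitted circRNAs, with TMM scaling on the left and mapped reads as library size on the right; the dashed line is the median of the 1341 circRNAs fitted (−0.42 and −0.90) and the grey band their interquartile range. With TMM, circRNA10329 (3.94), circRNA11824 (2.21) and circRNA11821 (2.15) lie farthest right. circRNA11819 (−1.38, SE 1.43) and circRNA11828 (−0.77, SE 0.61) lie farthest left. Over mapped reads these last circles stand at −1.85 (SE 1.46) and −1.34 (SE 0.70).

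The shared splice positions of GSK3B were then compared. The end at 149627995, used by circRNA11821 and circRNA11824, had 10, 5 and 3 reads in the piglets and 41, 20 and 9 in the adults. That was 8.4%, 7.35% and 5.17% of the GSK3B reads against 43.6%, 26% and 14.8%. All adult libraries were above all piglet libraries, and the means differed by 21.1 points (6.98% ± 1.65 and 28.1% ± 14.6, SD, n = 3 each). Without Adult-D210 replicate 1 the difference was 13.4 points. The start at 149623912, used by circRNA11823, circRNA11824 and circRNA11825, took 19.3%, 7.35% and 24.1% in the piglets and 41.5%, 40.3% and 31.1% in the adults. These also did not overlap (16.9% ± 8.64 and 37.6% ± 5.65, SD, n = 3 each). Reads of circRNA11824 count in both positions, so the pair is not independent.

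In the other direction, the start at 149631857, used by circRNA11827 and circRNA11828, took 21.8%, 26.5% and 17.2% in the piglets and 4.26%, 11.7% and 14.8% in the adults. The groups did not overlap, with a difference of −11.6 points. The most used end, at 149670651, was shared by 4 circles and took 52.1%, 54.4% and 34.5% in the piglets and 22.3%, 32.5% and 42.6% in the adults. Here Piglet-D30 replicate 3 and Adult-D210 replicate 3 crossed, and the means of 47% ± 10.9 and 32.5% ± 10.1 (SD, n = 3 each) differed by little more than their spread (−14.5 points, and −9.45 without Adult-D210 replicate 1). The ends at 149635582 and 149685278, with 3 circles each, overlapped between the ages, at 17.6% ± 16.5 against 14.6% ± 7.6 and 26.7% ± 5.3 against 24.8% ± 7.4. The start at 149657446 overlapped as well (27.3% ± 11.8 and 25.2% ± 4.14).

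**Figure D5:**
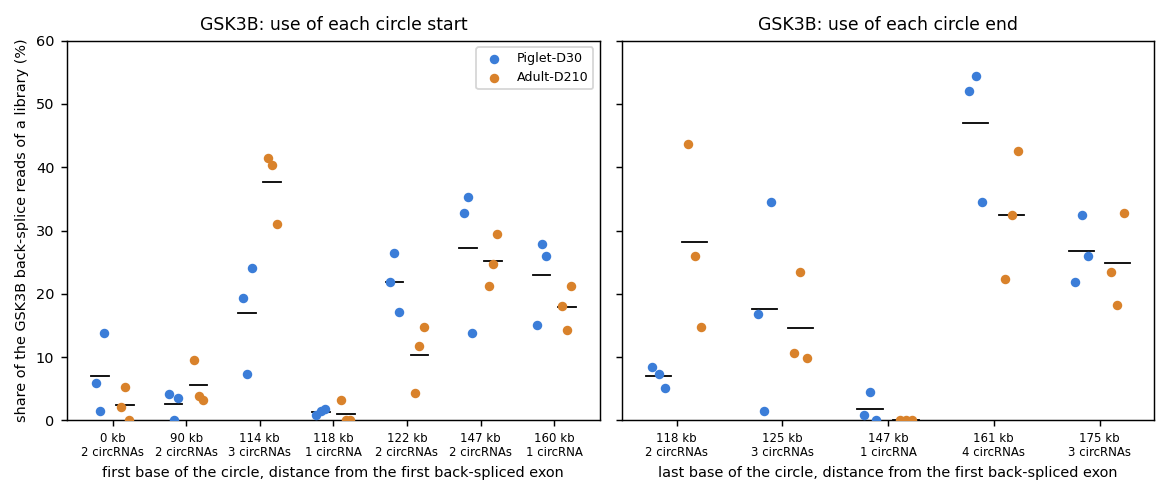
Share (%) of the GSK3B back-splice reads of a library that use each circle start (left) and end (right), placed by distance in kb from the first back-spliced exon, with 1 dot per library and a line at the mean of each age. Adult dots lie above piglet dots at the start and the end used by circRNA11824 and below them at the start used by circRNA11828.

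Counted by exon, the 111 nt exon at 149623912 was spanned by 29.4%, 8.82% and 41.4% of GSK3B reads in the piglets and 53.2%, 49.4% and 34.4% in the adults. The groups overlapped through Piglet-D30 replicate 3 and Adult-D210 replicate 3. The 187 nt exon at 149670465 was the most widely included, by 73.7% ± 13.2 of reads in the piglets and 57.3% ± 15.9 in the adults (SD, n = 3 each), again with overlap. The non-overlap at single splice positions did not extend to these exons.

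Likeness of pattern was measured by Pearson's r of log2 counts per 1000000 reads over the 6 libraries, as a description across libraries that also differ in depth and age. For circRNA10330, the 3 most alike circRNAs of other genes, among 1339 compared, were circRNA12245 of HSF2BP (r = 0.984), circRNA11708 of APOD (r = 0.980) and circRNA11824 of GSK3B (r = 0.965). circRNA10330 and circRNA11824 were both called higher in Adult-D210, and their genes were chosen on that contrast. Their r over the same libraries is therefore not read as a link between LEF1 and GSK3B. HSF2BP is a protein of meiotic recombination and APOD a lipocalin. circRNA12245 had 8, 8 and 4 reads in the piglets and 36, 22 and 10 in the adults. circRNA11708 had 1, 1 and 0 against 10, 6 and 1, so its r rests on few reads. An r above 0.9 was reached by 18 circRNAs. For circRNA11829 of GSK3B, among 1333 compared, they were circRNA12001 of USP25 (r = 0.941), circRNA11162 of EMC3 (r = 0.934) and circRNA10910 of USP4 (r = 0.930). circRNA12001 also had few reads, 12, 5 and 0 in the piglets and 0, 4 and 3 in the adults.

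The rest of the Wnt pathway could be examined only within the limits of the table, whose exonic circRNAs come from 4 chromosomes. Of 169 other Wnt genes listed, 19 had a circRNA in the table, with 52 circRNAs, of which 17 were fitted. The median log2 fold change of the 17 was −0.01, against −0.42 for all circRNAs fitted. Without Piglet-D30 replicate 1 the median of all fitted was −0.05, so nothing is read from this difference. None of the 25 ligand and secretion genes, 19 antagonists or 8 target genes was listed as a host, which is bounded by the same limit. Among receptors, RYK, an atypical tyrosine kinase receptor of Wnt ligands, had 6 circRNAs and 135 reads. Among cytoplasmic transducers PRICKLE2, of the planar cell polarity branch, had 23 reads, and among nuclear factors RUVBL1, an ATPase that binds β-catenin, had 75. β-catenin itself (CTNNB1) had 5 circRNAs and 11 reads, and GSK3A, the paralogue of GSK3B, had 2 reads, both in Adult-D210 replicate 3.

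In the non-canonical branches, MAPK10, a JNK kinase, had 252 reads over 5 circRNAs. PPP3CA, the catalytic subunit of calcineurin, had 28, 10 and 14 reads in the piglets and 8, 1 and 0 in the adults. Its 2 fitted circRNAs were not called (log2 fold change −2.07, SE 0.91, adjusted p = 0.165 for circRNA10365 in edgeR's quasi-likelihood test).

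Of the 17, 1 was called, higher in the adults, beside 3.43% of all circRNAs fitted, so the count says nothing particular to the list. It was circRNA11649 (chr13:132982287-132987238, 5 exons) of SENP2, a SUMO protease known to promote β-catenin degradation. It had 14, 12 and 14 reads in the piglets and 51, 35 and 30 in the adults, with every adult library above every piglet library. SRPBM rose from 2.16 ± 0.332 to 5.59 ± 1.42 (SD, n = 3 each), with a log2 fold change of 1.83 (SE 0.42, adjusted p = 0.0115 in edgeR's quasi-likelihood test). With mapped reads as library size it was not called. The Wnt list was chosen with earlier results of these data known, and circRNA11649 was named because it was called. Its adjusted p, and those of circRNA10365 and circRNA11650, therefore describe the fit and are no tests of a prior choice. circRNA11650, which has the same start and 1 exon fewer, had 45, 28 and 22 reads against 38, 30 and 21, and was not called (log2 fold change 0.25, SE 0.39, adjusted p = 0.725). The difference between these circles of SENP2 was not tested.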

How the data were processed

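Per the methods and the submitters' processing notes, the authors used cutadapt for trimming, TopHat2 for mapping to the pig genome (Sscrofa 10.2 in the notes) and CIRCExplorer2 for calling circRNAs. The deposited counts are back-splice reads of each circRNA in each library, without normalization. Beside them stands the deposited SRPBM, a signal equal to the count scaled by mapped reads and a read length of 150, from which mapped reads were recovered.

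Counts of at least 10 reads over the 6 libraries were fitted with edgeR 4.0.16 in R 4.3.3 (TMM, robust quasi-likelihood, Benjamini-Hochberg over 1341 circRNAs). DESeq2 1.42.0, other scalings and filters, a replicate block and leaving out each library were alternatives. The code was tested on simulated data. Shares carry Wilson intervals from SciPy 1.17.1. Each library was taken as 1 boar.

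The members, the Wnt list and the cell type markers were chosen with earlier results of these data known. Every LEF1 and GSK3B circRNA, called circRNAs of the Wnt list, the most read host of each role and the 3 circRNAs most like each leading circle were named. CTNNB1, GSK3A, PPP3CA with circRNA10365, and circRNA11650 were named after their values were seen. Of 984 circRNAs listed by Ensembl identifier, 703 were matched to a symbol, 0 of them LEF1 or GSK3B. No sequences were used.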

Additional observations from a re-analysis of the deposited data

How the results depend on the processing

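The calls of the LEF1 and GSK3B circRNAs were not stable to the choice of library or scale. Of 3 called, 0 remained with mapped reads as library size, 0 with a replicate block, and 0 to 3 when each library was left out in turn. circRNA10329 was lost without Adult-D210 replicate 1 (log2 fold change 3.74) or Piglet-D30 replicate 3 (3.49), and was called at 7.52 without Piglet-D30 replicate 1, where the piglets were at 0. circRNA10330 was lost without Adult-D210 replicate 1 (1.06), Adult-D210 replicate 2 (1.30), Piglet-D30 replicate 1 (1.30) or Piglet-D30 replicate 3 (1.14). circRNA11824 was lost without any library but Adult-D210 replicate 3 (2.0 to 2.39). These fits keep the direction and test with fewer samples. The 3 were called by DESeq2, with its size factors, without TMM, at 20 reads and with no filter.

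Over the whole table, 111 calls became 33 with the replicate block, all among the 111, and 39 to 81 when each library was left out. The call of circRNA11649 of SENP2 was lost with mapped reads (0 of 17) and the block (0). Replicate numbers did not pair the boars: deviations of same-numbered libraries correlated at 0.05, −0.01 and −0.03, and 2 of 6 libraries correlated best with their own number.

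The summed GSK3B log2 ratio of −0.26 per 1000000 mapped reads was 0.45 per 1000000 back-splice reads and 0.54 in a fit over host sums that was chosen after seeing the data. Under their 8 alternatives, the share differences of circles and splice positions moved by less than the larger of the group SDs, but some moved by more than the smaller. That of the end at 149627995 went from 21.1 to 13.4 points without Adult-D210 replicate 1. Some small differences changed sign. Without Piglet-D30 replicate 2, circRNA11825 went from 1.86 to −3.12 and the start at 149657446 from −2.13 to 1.87. The end at 149635582 went from −2.97 to 5.48 without Piglet-D30 replicate 3. The end at 149685278 went from −1.9 to 1.41 without Adult-D210 replicate 2. With at least 10 reads, circles sharing an end went from 13 to 8 in GSK3B and from 3 to 0 in LEF1. Depth limits the circles under 10 reads, where no library held more than 4 reads of a circle.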
